A study of Homo sapiens with 3 samples.

Results

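The genes described here are 10 immediate early and AP-1 genes, namely FOS, FOSB, FOSL1, FOSL2, JUN, JUNB, JUND, EGR1, MYC and IER3, chosen by name from a table of 60605 genes. They were measured by poly(A) RNA sequencing in RCC4 cells. RCC4 is an established line from a human clear cell kidney cancer, is without functional VHL, and here had been transduced with a lentiviral Cas9 vector. All 3 libraries were biological replicates of 1 condition, a 24 h exposure to IFN-gamma at 1000 U/mL plus TNF at 25 ng/mL, with 3 flasks per replicate. No untreated cells were analysed here, so every value is a level in treated cells and none is a response to the cytokines.

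AP-1 is a family of dimeric transcription factors. JUN proteins pair with each other or with FOS proteins through a leucine zipper, whereas FOS proteins need a JUN partner, and the dimers bind a short DNA element shared by many inflammatory, invasion and growth genes. FOS, FOSB and EGR1 are textbook immediate early genes: stimuli that act on MAP kinases switch them on within minutes without new protein synthesis, and their short-lived mRNAs soon fall again. FOSL1, FOSL2, JUN and JUND can be held at steady levels in tumour cells, and TNF is a classical activator of JUN through the JNK kinases. MYC encodes a growth regulator that binds DNA with MAX. IER3 encodes an immediate early regulator of survival signalling rather than a transcription factor.

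In these cells the AP-1 transcripts that were counted came from FOSL1, JUN, JUND and FOSL2, while FOS had 2 to 4 reads in each library and EGR1 stood near the detection limit. JUNB and FOSB were listed at 0 reads, and their exons lie wholly inside the span of another gene, so these zeros are given as listed and not as levels. With detection set at 1 CPM (reads scaled to library size with TMM) in every library, 7 of the 10 genes were detected, against 51.4% of 19861 protein-coding genes. The exceptions were FOS, FOSB and JUNB.

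The promoter windows of 4 of these genes are shown because they pair abundant AP-1 genes (FOSL2 and JUN) with FOS, which had few reads, and EGR1, which only just passed the detection limit. They are RefSeq sequences on GRCh38.p14, 250 bases before to 50 bases after the annotated start, and the first transcribed base is position 1. FOSL2 is at chr2:28392608-28392907 on the plus strand, JUN at chr1:58783998-58784297 on the minus strand, FOS at chr14:75278578-75278877 on the plus strand and EGR1 at chr5:138465229-138465528 on the plus strand. Capitals mark matches on either strand to the AP-1 element TGANTCA, the longer element TGANNTCA, the cyclic AMP response half-site TGACG, the CArG box bound by serum response factor, and the STAT-type element TTCNNNGAA.
FOSL2: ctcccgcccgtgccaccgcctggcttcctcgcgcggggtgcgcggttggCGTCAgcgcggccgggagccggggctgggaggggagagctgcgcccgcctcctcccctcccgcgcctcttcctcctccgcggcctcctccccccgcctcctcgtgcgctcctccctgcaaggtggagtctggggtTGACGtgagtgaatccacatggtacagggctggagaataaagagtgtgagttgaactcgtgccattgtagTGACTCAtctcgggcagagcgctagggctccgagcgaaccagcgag
JUN: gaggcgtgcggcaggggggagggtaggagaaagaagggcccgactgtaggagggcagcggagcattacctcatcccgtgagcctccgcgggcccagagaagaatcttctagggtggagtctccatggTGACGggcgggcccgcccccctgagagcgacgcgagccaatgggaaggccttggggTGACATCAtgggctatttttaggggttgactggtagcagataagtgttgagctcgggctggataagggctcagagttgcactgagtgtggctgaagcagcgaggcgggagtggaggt
FOS: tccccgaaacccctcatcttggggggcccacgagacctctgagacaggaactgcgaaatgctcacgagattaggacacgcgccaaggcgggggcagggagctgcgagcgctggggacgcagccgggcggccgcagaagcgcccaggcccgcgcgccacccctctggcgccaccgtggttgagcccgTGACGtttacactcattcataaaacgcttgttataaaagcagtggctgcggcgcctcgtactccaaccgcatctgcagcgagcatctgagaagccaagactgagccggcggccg
EGR1: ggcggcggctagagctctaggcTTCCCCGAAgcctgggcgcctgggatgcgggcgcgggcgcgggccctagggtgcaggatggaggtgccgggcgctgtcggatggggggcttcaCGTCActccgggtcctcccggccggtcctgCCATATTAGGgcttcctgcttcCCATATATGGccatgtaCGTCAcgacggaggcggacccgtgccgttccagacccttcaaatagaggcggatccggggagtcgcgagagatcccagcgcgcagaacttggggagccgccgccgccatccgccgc
The windows of FOSL2 and JUN lie downstream of the earliest transcript start that GENCODE 29 gives for those genes.

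Promoter windows were searched for 7 of the 10 genes (FOS, FOSB, FOSL2, JUN, JUNB, JUND and EGR1). No window was matched for FOSL1 and IER3, and MYC was left out of the search. The half-site TGACG, read as CGTCA on the other strand, was present in all 7, against 29.5% of 15843 promoter windows of protein-coding genes. FOSL2 held the AP-1 element as TGACTCA at positions 5 to 11 after the start, an element present in 5.75% of all windows. JUN held TGACATCA at positions -67 to -60, and JUND held TGACGTCA at -200 to -193 and TGAGCTCA at -54 to -47; 10.0% of all windows had a match to TGANNTCA. The match in JUND at -200 contains the half-site on both strands. Within these windows EGR1 alone of the 7 carried CArG boxes, CCATATTAGG at -105 to -96 and CCATATATGG at -83 to -74, and 1.21% of all windows had such a match. Sequence further upstream was not searched, so a CArG box of another gene outside its window would be missed. EGR1 also held TTCCCCGAA at -228 to -220, a form of TTCNNNGAA, which 6.97% of all windows contain. No match to CACGTG, the element bound by MYC and MAX, or to an NF-kappa-B site was found in these 7 windows, against 8.88% and 12.3% of all windows. These motifs were chosen after the sequences had been read, the matches are descriptions of letters, and no binding was measured.

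Levels below are RPKM, the TMM-scaled CPM per kilobase of exon in GENCODE 29, so that genes can be compared per length. This length holds exons only, and whether reads in introns were counted is not given. If they were, genes with introns would stand too high beside the intronless JUN and JUND, which was not tested. Reads assigned to genes totalled 29199806 in replicate 1, 26264283 in replicate 2 and 33458691 in replicate 3. Replicate 1 stood apart along GC content: 12.3% and 14.9% of 11266 detected genes differed more than 2-fold between it and replicates 2 and 3, against 0.16% between replicates 2 and 3. Of 8 epithelial and renal carcinoma markers 7 were detected, among them KRT8 and the carbonic anhydrase CA9, but the epithelial cadherin CDH1 had only 32, 6 and 7 reads. Of the markers of other cell types, 0 of 5 blood cell genes, 0 of 3 endothelial genes and 1 of 4 fibroblast genes were detected. Their summed levels were 0 to 0.0781 RPKM, 0.0284 to 0.0721 RPKM and 0.829 to 0.994 RPKM over the libraries, and PTPRC and CD3E were at 0 reads.

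Among the FOS proteins, FOSL1 (FRA-1), which lacks the strong activation domain of FOS and is linked to invasive growth in carcinoma, was the highest of the 8 genes with reads. FOSL1 (chromosome 11, 65892049 to 65900573, GRCh38, minus strand) had 8801, 6490 and 8370 reads, which correspond to 172, 127 and 128 RPKM in replicates 1, 2 and 3. Its mean of 142 ± 25.8 RPKM (SD, n = 3) exceeded the level of 98.9% of protein-coding genes. Replicate 1 was the highest library and replicates 2 and 3 were nearly equal. FOSL2 (FRA-2), its close relative (chromosome 2, 28392448 to 28417312, plus strand), had more reads, 15993, 13952 and 16813, over a longer transcript. Per length it stood at 82.3, 71.8 and 67.5 RPKM, a mean of 73.9 ± 7.60 RPKM. FOSL1 exceeded FOSL2 in each library, by 0.93 ± 0.12 on the log2 scale of RPKM plus 0.1, or 1.91-fold.

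FOS itself (chromosome 14, 75278774 to 75282230, plus strand) had 4, 2 and 4 reads in replicates 1, 2 and 3, or 0.0455, 0.0227 and 0.0355 RPKM. All libraries were low, and none of its exon length lies inside another annotated gene. In replicate 1, 1621 genes had 2 reads and 269 had 1, so these few reads need not be separate molecules. In RNA from whole cultures, fewer expressing cells and less RNA per cell cannot be told apart. FOSB (chromosome 19, 45467995 to 45475179, plus strand) was listed at 0 reads in each library. All of its exon length falls within the span of ERCC1, a DNA repair gene on the opposite strand in GENCODE 29 that itself had 2050, 1761 and 2219 reads. However, 0% of it overlaps annotated exons of another gene. Whether reads were counted over exons or over whole gene spans is not given. Among 3177 protein-coding genes that overlap other spans over 80% or more of their exons, 72.8% were at 0 reads in all libraries, against 27.2% of 9483 genes free of overlap. The place of FOSB in the order of levels is therefore not given.

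**Figure D1:**
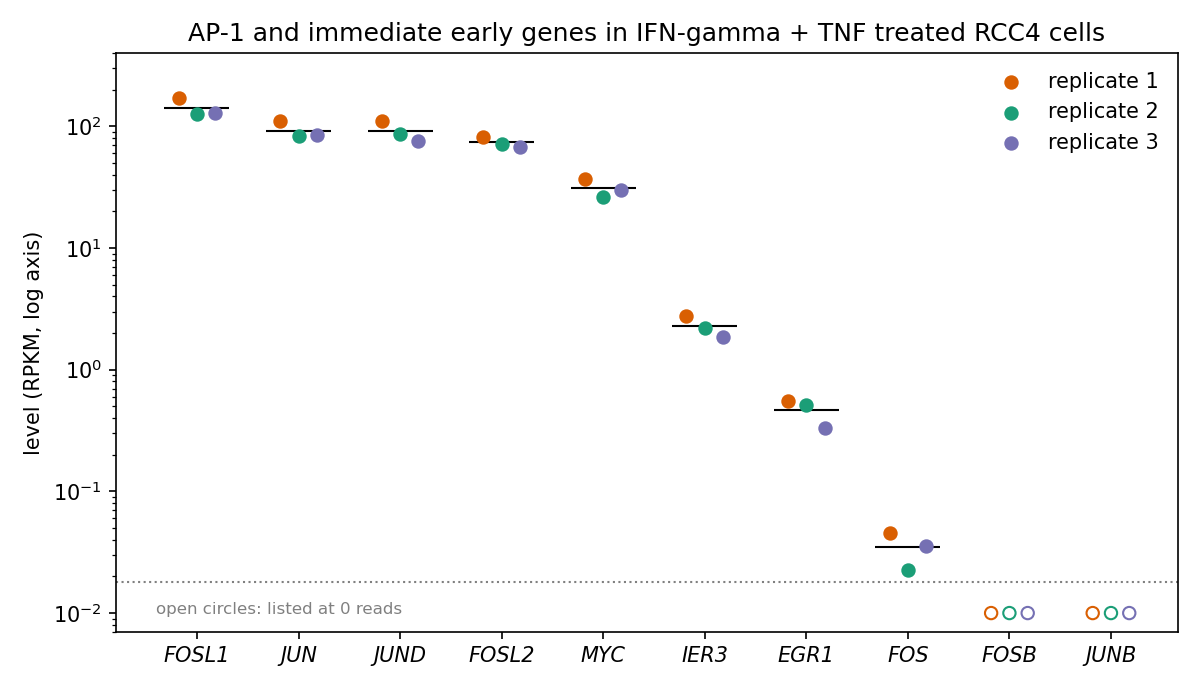
Level of each gene (RPKM, log axis) in the 3 libraries of IFN-gamma plus TNF treated RCC4 cells; filled points are libraries, horizontal lines are means, and open circles mark genes listed at 0 reads. FOSL1, JUN, JUND and FOSL2 lie between 67.5 and 172 RPKM, MYC between 26.3 and 36.8 RPKM, and FOS below 0.05 RPKM.

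Of the JUN family, JUN and JUND were both abundant, and their means differed by less than the spread between libraries. JUN, the strongest activator of the family and a target of JNK (chromosome 1, 58780788 to 58784327, minus strand), had 10531, 7979 and 10393 reads, or 110 RPKM in replicate 1, 83.0 in replicate 2 and 84.4 in replicate 3. Its mean was 92.3 ± 15.0 RPKM. JUND, which is commonly expressed in resting cells (chromosome 19, 18279760 to 18281622, minus strand), had 5623, 4352 and 4880 reads and stood at 111, 86.0 and 75.3 RPKM, with a mean of 90.8 ± 18.4 RPKM. JUN was below JUND in replicates 1 and 2 and above it in replicate 3, with a log2 ratio of 0.03 ± 0.12, which did not exceed the spread between libraries. Both are intronless genes.

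JUNB, a weaker activator that can oppose JUN (chromosome 19, 12791496 to 12793315, plus strand), was listed at 0 reads in each library. All of its exon length lies in the span of HOOK2, a cargo adaptor gene on the opposite strand that had 930, 772 and 935 reads, and 14.2% of it overlaps exons of HOOK2. As for FOSB, the 0 is given as listed and not as a level.

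Ratios of the families therefore cover JUN and JUND over FOS, FOSL1 and FOSL2. The summed JUN family level was 221, 169 and 160 RPKM in replicates 1, 2 and 3, and the summed FOS family level was 254, 198 and 195 RPKM. The JUN sum was the lower in every library, at a log2 ratio of -0.24 ± 0.04. A ratio is called past the replicate spread here where all 3 libraries have the same sign and the mean exceeds 2 SD, since a sign-flip test over 3 libraries cannot go below a two-sided exact p of 0.25. This ratio met that rule. A true level of JUNB or FOSB above 0 would change it. So would reads counted in the introns of FOSL1 and FOSL2, since JUN and JUND lack introns. The alternative settings given at the end do not cover this.

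The make-up of the listed AP-1 transcripts varied little between libraries. FOSL1 made up 67.6%, 63.8% and 65.4% of the FOS family sum, FOSL2 32.4%, 36.2% and 34.6%, and FOS under 0.02% in each library. JUN made up 49.6%, 49.1% and 52.8% of the listed JUN family sum, with JUND as the rest. Over both families together FOSL1 had the largest share, 35.5% ± 0.927, followed by JUN at 23.1% ± 0.605, JUND at 22.7% ± 1.26 and FOSL2 at 18.6% ± 1.15 (SD, n = 3).

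**Figure D2:**
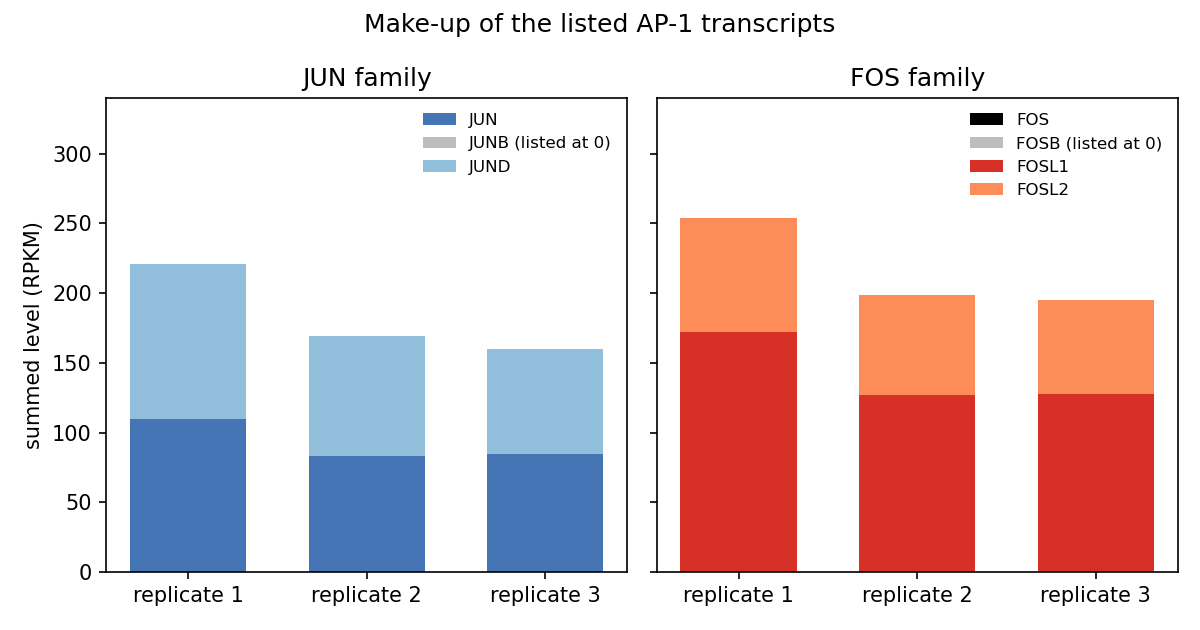
Summed level (RPKM, axis from 0) of the JUN family (left) and the FOS family (right) in each library, with each bar divided by gene. The JUN sums of 160 to 221 RPKM consist of JUN and JUND, the FOS sums of 195 to 254 RPKM consist almost wholly of FOSL1 and FOSL2, and JUNB and FOSB, listed at 0, add nothing.

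MYC, on chromosome 8, had 2997, 2148 and 3143 reads, or 36.8, 26.3 and 30.1 RPKM, and its mean of 31.1 ± 5.28 RPKM lay above 92.7% of protein-coding genes. MYC exceeded its partner MAX, at 7.87 ± 0.44 RPKM, in each library, by 1.96 ± 0.16 on the log2 scale or 3.88-fold. Of the exon length of MAX 22.2% lies in other spans. The other MYC paralogs were near 0: MYCN had 0, 2 and 0 reads and MYCL 22, 22 and 12.

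EGR1, a zinc finger factor induced through serum response elements (chromosome 5, 138465490 to 138469315, plus strand), had 47, 44 and 36 reads. At 1.73, 1.62 and 1.03 CPM it only just passed the detection limit, and its mean of 0.466 ± 0.119 RPKM exceeded 49.8% of protein-coding genes. No other annotated gene overlaps its exons. NAB2, a corepressor that binds EGR1, stood at 6.21 ± 0.427 RPKM, so that the EGR1/NAB2 log2 ratio was -3.50 ± 0.25. With 1 RPKM added in place of 0.1 it was -2.30 ± 0.06, and with nothing added -3.77 ± 0.32. IER3 (chromosome 6, 30743199 to 30744554, minus strand) had 101, 81 and 88 reads, or 2.74, 2.20 and 1.87 RPKM, a mean of 2.27 ± 0.443. IER3-AS1, on the opposite strand, covers 29.1% of the IER3 exons and had 10, 10 and 15 reads. The strand setting of the counting is not given, so whether reads in the overlap were counted for either gene is not known. IER3 was lower than IER2, another immediate early gene, at a log2 ratio of -2.64 ± 0.14. Of the exon length of IER2 36.6% lies in another span. With the exon length outside other genes' spans the ratio was -2.81 ± 0.15.

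Ordered by mean RPKM, the genes with reads in every library were FOSL1, JUN, JUND, FOSL2, MYC, IER3, EGR1 and FOS. Of the 7 neighbouring pairs in this order, 6 were past the replicate spread, and JUN with JUND was not. The order came from the means of these same libraries and no share was counted for other gene pairs, so this count is a description only. Among the 6 is EGR1 over FOS, whose size depends on the added constant, since FOS lies below it: 2.05 ± 0.34 on the log2 scale with 0.1 RPKM added, 0.50 ± 0.12 with 1 and 3.77 ± 0.66 with none. IER3 exceeded EGR1 by 2.07 ± 0.15, or by 1.15 ± 0.10 with 1 RPKM added. FOSL1 exceeded JUN by 0.62 ± 0.03 on the log2 scale, the pair with the smallest SD. JUND exceeded FOSL2 by 0.28 ± 0.14, a difference that was not past the spread with the exon length outside other genes' spans (0.04 ± 0.14), with the longest coding transcript as length (0.19 ± 0.14) or without replicate 2 (0.30 ± 0.20). FOSL2 exceeded MYC 2.39-fold and MYC exceeded IER3 13.2-fold. The protein-coding genes nearest to FOSL1 by the root mean square difference of log2 levels over the 3 libraries were AP2M1, an endocytic adaptor subunit, the ribosomal protein RPL28 and the coactivator EDF1, at 0.01, 0.03 and 0.03.

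All 7 detected genes were highest in replicate 1, against 48.5% of 11266 detected genes. On the log2 scale, replicate 1 exceeded the mean of the other libraries by a median of 0.39 over the 7 genes (0.24 in FOSL2 to 0.46 in JUND) and of 0.04 over all detected genes. These genes are rich in GC, at 53.3% in FOSL2 to 69.7% in JUND over the longest coding transcript, and the ratio in all genes moved with GC content: its median was -1.42 in the lowest of 20 GC bins and 0.41 in the highest. Against the median of its own GC bin, each gene differed by -0.06 to 0.09, and 6 of 7 were above it. With the GC trend of each library removed, 3 of 7 genes were highest in replicate 1, against 42.9% of all detected genes, and the median ratio over the 7 genes was 0.069. The coefficient of variation of the 7 genes ran from 10.3% in FOSL2 to 25.6% in EGR1, against a median of 16.7% over all detected genes.

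**Figure D3:**
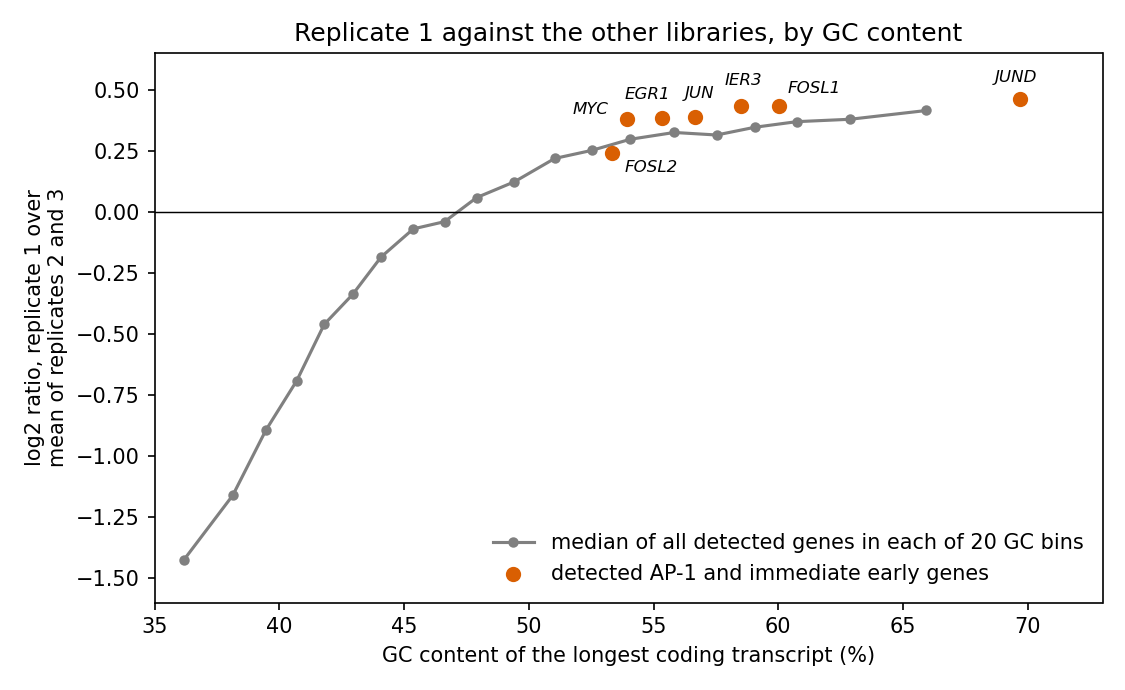
Log2 ratio of replicate 1 over the other libraries' mean against the GC content of the longest coding transcript; orange points are the 7 detected genes and grey points are medians of all detected genes in 20 bins of GC content. The orange points lie between 0.24 and 0.46, close to the grey curve, which runs from -1.42 to 0.41.

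Further features of the 10 transcripts were counted, and only the first is common to all. All 10 have at least 1 AUUUA pentamer (ATTTA in the annotated sequence), the core of AU-rich decay elements, in the 3′ untranslated region, against 67.6% of 19303 protein-coding genes. The density was highest in MYC, at 8.40 per kilobase, then IER3 at 6.64, FOS at 6.20 and JUNB at 4.0, and lowest in EGR1 at 0.81. The median was 2.09 per kilobase over the 10 genes and 1.44 over all protein-coding genes. The extended form TTATTTATT occurred in FOS and FOSL2, and in 8.24% of protein-coding genes. JUN, JUNB, JUND and IER3 have a longest coding transcript with a single exon. No decay rate was measured.

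Of 20 dimer partners and other bZIP relatives, 17 were detected, against the 51.4% of protein-coding genes given above, and the list median was 4.42 RPKM, against 0.482 RPKM for all protein-coding genes. ATF4, the effector of the integrated stress response, was highest at 165 ± 13.3 RPKM. BATF2, an interferon-inducible partner of JUN proteins, followed at 43.4 ± 6.08 RPKM with 3886, 3158 and 3854 reads, then ATF3, a stress-induced factor, at 24.9 ± 3.54 RPKM and the small MAF protein MAFK at 19.0 ± 2.14 RPKM. BATF3, a relative of BATF2, stood at 12.9 ± 3.55 RPKM, whereas BATF was listed at 0 reads with no overlapping gene. ATF5, which lies wholly inside other spans, was also listed at 0. ATF3 was below JUN in each library, at a log2 ratio of -1.88 ± 0.07, which was -0.89 ± 0.07 with the longest coding transcript as length. NFE2L2 and ATF2 were uneven between libraries, with 1134, 3187 and 4375 reads and 292, 943 and 1465 reads, lowest in replicate 1.

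Of 22 other immediate early genes and their regulators, 15 were detected, against 51.4% of protein-coding genes, with a median of 3.54 RPKM. The zinc finger factors KLF6 and KLF10 stood at 96.6 ± 6.28 and 29.6 ± 2.32 RPKM. Serum response factor SRF stood at 30.5 ± 7.32 RPKM and its cofactor ELK1 at 21.3 ± 3.88 RPKM. Of the remaining EGR genes, EGR2 had 2 reads in each library, and EGR3 and EGR4 were listed at 0. Of the exon length of EGR3 48.7% lies in another span, whereas EGR4 has no exon in one. Among the nuclear receptors, NR4A1 had 8, 14 and 10 reads, and NR4A3 was listed at 0. NR4A2 was detected with 57, 58 and 125 reads (0.658 ± 0.215 RPKM). DUSP1, a MAP kinase phosphatase, was listed at 0 and lies wholly inside another span. Of these, EGR2, NR4A1, NR4A2, NR4A3 and DUSP1 were chosen after their values were seen, as were BATF3, NFE2L2, ATF2 and MYCL above and the genes that overlap members.

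**Figure D4:**
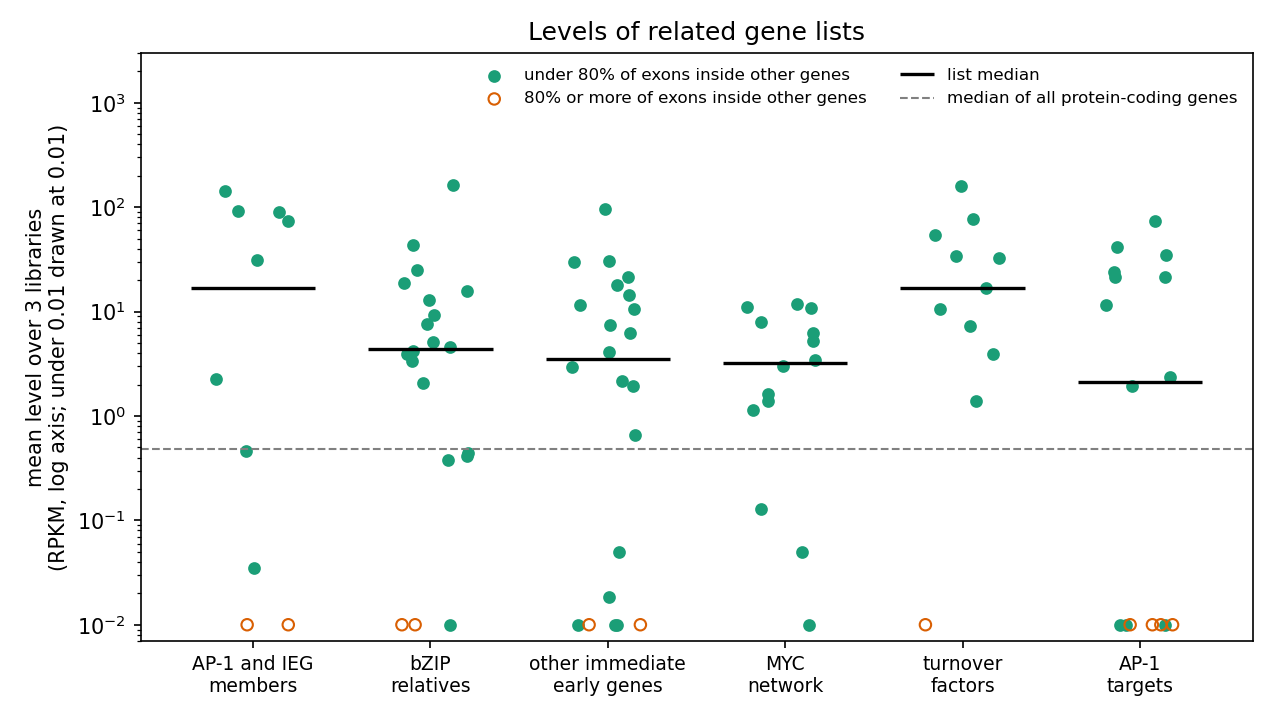
Mean level of each gene over the 3 libraries (RPKM, log axis, values under 0.01 drawn at 0.01) for the 10 genes and 5 related lists; open circles are genes whose exons lie 80% or more inside other genes, black lines are list medians and the dashed line is the median of all protein-coding genes, 0.482 RPKM. The lists' medians run from 2.13 RPKM for AP-1 target genes to 16.9 RPKM for turnover factors.

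In the MYC network 11 of 14 genes were detected, against 51.4% of protein-coding genes, with a median of 3.24 RPKM. MLXIP, MLX and ZBTB17 were the highest, at 11.9 ± 3.21, 11.0 ± 1.48 and 10.8 ± 2.51 RPKM, and MAX came next. MLXIPL, the carbohydrate-response factor, had 11, 4 and 6 reads. Of 11 factors that act on the turnover of these mRNAs and proteins, 10 were detected, against the same 51.4%, with a median of 16.9 RPKM. KHSRP, which promotes decay of AU-rich mRNAs, led at 159 ± 47.1 RPKM, followed by ZFP36L1, of the same function, at 77.2 ± 2.92, the AU-binding HNRNPD at 54.2 ± 5.88 and the deadenylase scaffold CNOT1 at 34.0 ± 2.00 RPKM. FBXW7, the ubiquitin ligase subunit that targets JUN and MYC proteins, was the lowest with reads in this list, at 1.38 ± 0.237 RPKM, above the level of 57.2% of protein-coding genes. DET1 was listed at 0, with 98.7% of its exons in other spans.

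Of 16 genes known as AP-1 targets, 9 were detected, a share near the 51.4% of protein-coding genes. Their median was 2.13 RPKM, against 0.482 RPKM for all protein-coding genes, and 16.4 RPKM over the 12 with less than 80% of their exons in other spans, against 1.41 RPKM for all protein-coding genes of that kind. The hyaluronan receptor CD44 stood at 73.2 ± 8.05 RPKM, the urokinase receptor PLAUR at 41.1 ± 4.99, the cyclin CCND1 at 34.5 ± 2.24 and the haem oxygenase HMOX1 at 24.2 ± 3.28 RPKM. The collagenase MMP1 and the stromelysin MMP3 were listed at 0 reads, with 100% and 22.4% of their exons in other spans. They were among 6 targets at 0, of which the collagenase MMP13 and osteopontin (SPP1), chosen after their values were seen, have no exon in another span. No list contrasts conditions, and the share of each level that depends on AP-1 or on the cytokines was not tested.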

How the data were processed

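Poly(A) RNA from 3 replicate cultures was sequenced from directional libraries, per the labels' protocols. The submitters' processing notes list cutadapt 1.18, then HISAT2 2.1.0, FastQC, featureCounts 2.0.0 and hg38, without an order. Annotation release and counting options: not given in the sources used here. Each deposited signal value proved to be a count divided by a library factor that the authors applied: 100% of nonzero values were whole multiples of 1 read within 0.01 read. Whole reads were recovered with factors of 0.946, 0.971 and 1.24. In replicate 1, 1621 genes had 2 reads and 269 had 1, so reads are not independent molecules and the depth overstates the precision. The design named whole reads in advance, as known from earlier results.

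Of the 60605 identifiers 58337 (96.3%) matched GENCODE 29 (GRCh38) and held 99.9% of the reads. Its release need not be the authors'. TMM scaling came from edgeR 4.0.16 under R 4.3.3, with median-of-ratios factors from DESeq2 1.42.0 as an alternative. Log2 ratios used RPKM plus 0.1. There is a single group, so no contrast was tested. The GC correction was checked on simulated data. Chi-square per degree of freedom was 15.3 or more for each pair of libraries, so none was taken for a repeat deposit.

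The genes and lists were chosen with earlier results of these data known. Named genes were the 10 members, the 4 highest and 2 lowest of each list (ties at 0 in list order), the genes of 12 pairs and the 3 nearest to the highest member. For a pair, each of its genes needed 10 reads in at least 1 library and a read in all, which left out 5 pairs that hold FOS, FOSB or JUNB.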

Additional observations from a re-analysis of the deposited data

How the results depend on the processing

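No paired analysis was possible because there is 1 group of libraries. The JUN family over FOS family log2 ratio stayed below 0 and past the replicate spread under all 10 alternatives. It ran from -0.39 with the longest coding transcript as length to -0.22 without replicate 3, and from -0.26 to -0.22 over the libraries left out. Library rescaling could hardly change this ratio, because scale cancels within a library. Nor could the added constant, which is small beside the sums. Rescaling could likewise hardly change the gene pairs and neighbours, so these agreements were fixed in advance. The number of neighbouring pairs past the spread was 5 or 6 of 7 under each alternative (5 to 6 without a replicate), and JUND over FOSL2 was the pair lost. Where a replicate was left out, the rule used only the remaining libraries, so its SD is less stable there. Without replicate 3, JUND came before JUN in the order. All 7 measurable gene pairs kept their side of the rule under each alternative, with 6 past it. However, ATF3 over JUN (length) and EGR1 over NAB2 (added constant) moved by over 1.5 times. So did IER3 over EGR1, EGR1 over FOS and JUND over FOSL2 among the neighbours. JUN over JUND, which is both a chosen pair and a neighbouring pair, ran from -0.04 without replicate 3 to 0.07 without replicate 2. The number of detected members was 7 under each alternative except at 10 CPM, where EGR1 and IER3 were lost and 5 were left. The median log2 ratio of replicate 1 to replicates 2 and 3 over the detected members was 0.37 to 0.43 under the alternatives other than GC correction and moved to 0.069 with the GC trend removed, which by construction takes out a shift that follows GC content. Mean levels moved by more than 1 SD in 4 of 78 cases: with the exon length outside other spans FOSL2 stood at 87.2 and IER3 at 3.20 RPKM, and with the longest coding transcript MYC stood at 39.4 and FOS at 0.0519 RPKM. All 30 recounts of detected genes in the related lists stayed within 1.5 times the main count. Depth limits FOS, at 2 to 4 reads, and EGR1, at 36 to 47 reads. The overlap with other genes, not depth, is what was measured beside the zeros of JUNB and FOSB, and its part in them was not tested.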
